A study of Mus musculus with 2 samples.

Results

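The genes described here are 10 transcripts of the NF-kB response and of interleukin 1 and tumour necrosis factor signalling: Nfkbia, Nfkbiz, Tnfaip3, Bcl2a1b, Bcl2a1d, Cd83, Ier3, Il1a, Il1rn and Tnf. They were chosen by symbol, with earlier results of these data known, and were all found among the 31053 genes listed in each count matrix. Their levels were read in embryonic mouse microglia, the resident macrophages of the brain, and in the other myeloid cells sorted with them. Cells carrying both Ccl3 and Ccl4, a pair of chemokine transcripts that NF-kB also controls, were compared with cells carrying neither.

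Both libraries were single-cell 3′ RNA libraries (10x Genomics, v3 chemistry) from the hypothalamic and thalamic region of CD1 embryos at E15.5, sorted for surface Cd11b and Cd45. The stressed library pooled 5 embryos of 1 dam, which had been kept at 4 °C for 30 min on each of 5 days from E11.5 to E15.5. The control library pooled 10 embryos of 1 wild-type dam that had no such exposure. CD1 is an outbred stock, neither group carried a transgene, and the tissue was cut with a blade on ice. With 1 library per condition there is no replicate check: every interval given covers counting error only, no test of the stress was possible, and dam, litter and stress cannot be told apart.

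NF-kB transcription factors are held in the cytoplasm by IkB proteins until a signal, such as interleukin 1, tumour necrosis factor or a microbial product, leads to destruction of the IkB protein. The freed factor enters the nucleus and switches on cytokines, chemokines and survival genes, together with its own inhibitors, among them Nfkbia and Tnfaip3, which end the response. In microglia this program is known from infection and injury, and also from cell isolation, which can set off the same early genes.

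After filtering, 1407 of 1467 stressed barcodes and 1068 of 1156 control barcodes were kept. Median depth over all barcodes was 3767 UMIs (unique molecules) per cell in the stressed library and 1947.5 in the control library, so levels are given as CPM, the UMIs of a gene scaled to the UMI total of the summed cells, and shares of cells also at 1100 UMIs per cell. Cells were assigned by sets of 8 markers: 1137 stressed and 637 control cells were microglia, 32 stressed and 85 control cells were border-associated macrophages, and 16 stressed and 23 control cells were monocytes or granulocytes. P2ry12 is one of the markers used for this assignment, so its level describes the classes and does not test them. It stood at 809.1 CPM in stressed and 912 CPM in control microglia. Monocytes or granulocytes held 1 P2ry12 UMI in the stressed and 0 in the control library. Microglia also held the border macrophage marker Mrc1, at 77.9 CPM in the stressed and 68.3 CPM in the control library. Another 156 stressed and 213 control cells were neural and served as a background, and 54 stressed and 102 control cells met no marker set. The litters differed in sex: Xist without any Y-linked transcript was found in 1066 stressed microglia (93.8%) and in 216 control microglia (33.9%). The libraries shared 13 barcodes, of which 1 was kept in both.

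Promoters of 8 of the 10 genes, 11 start sites in all, were in the RefSeq promoter table (GRCm38.p6, 250 bases before to 50 after each start). The 10-base NF-kB consensus, named the kB motif, was searched for on both strands. A match was present at 1 start site each of Nfkbia, Tnfaip3 and Ier3, against 4.51% of all 32851 promoters in the table. These 3 promoters are shown because their genes are the inhibitors and the early-response gene that the results turn on. Each is written 5′ to 3′ on the gene's strand, with matches in capitals. A match describes these letters and is not evidence of binding.

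Nfkbia, chr12:55492598-55492897, minus strand: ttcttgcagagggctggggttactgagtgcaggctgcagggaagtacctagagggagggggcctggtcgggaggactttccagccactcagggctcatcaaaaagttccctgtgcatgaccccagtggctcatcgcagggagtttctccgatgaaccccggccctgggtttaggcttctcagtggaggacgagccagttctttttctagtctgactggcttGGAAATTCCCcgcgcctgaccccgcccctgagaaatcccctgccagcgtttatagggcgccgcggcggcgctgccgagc

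Tnfaip3, chr10:19015361-19015660, minus strand: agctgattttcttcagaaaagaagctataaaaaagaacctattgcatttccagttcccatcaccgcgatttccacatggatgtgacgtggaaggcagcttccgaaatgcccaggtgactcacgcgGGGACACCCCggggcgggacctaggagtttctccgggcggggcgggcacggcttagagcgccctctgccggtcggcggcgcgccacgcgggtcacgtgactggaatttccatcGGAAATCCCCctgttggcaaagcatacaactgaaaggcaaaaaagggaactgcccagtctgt

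Ier3, chr17:35821463-35821762, plus strand: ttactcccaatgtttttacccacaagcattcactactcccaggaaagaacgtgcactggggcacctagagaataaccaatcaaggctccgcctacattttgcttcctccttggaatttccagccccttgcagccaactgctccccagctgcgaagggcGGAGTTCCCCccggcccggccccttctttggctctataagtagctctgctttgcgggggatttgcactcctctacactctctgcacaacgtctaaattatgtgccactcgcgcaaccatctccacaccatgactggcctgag

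Counted from the start, the match began at -29 in Nfkbia (GGAAATTCCC), at -125 and -12 in Tnfaip3 (GGGACACCCC and GGAAATCCCC) and at -92 in Ier3 (GGAGTTCCCC).

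In microglia the anti-apoptotic genes Bcl2a1b and Bcl2a1d and the activation marker Cd83 were higher in the stressed library by less than 1.5-fold, the cytokine Il1a was 1.81-fold higher, and the feedback inhibitors Nfkbia and Tnfaip3 were lower. Of the 9 genes that reached a mean of 10 CPM, 1 was at least 1.5-fold higher (Il1a; 2.37% of 7140 genes were) and 2 were at least 1.5-fold lower (Nfkbia and Tnfaip3; 6.69% of genes were). Tnf was below 10 CPM and was not counted. Il1a, at 8.98 CPM in control microglia, and Tnfaip3, at 9.57 CPM in stressed microglia, reached the minimum only through their higher library. The counts are therefore a description only. The median log2 ratio of the 9 genes was 0.10, and that of all 7140 genes was −0.09. TMM scaling moved all ratios up by 0.11, which left Nfkbia at −0.54 and Tnfaip3 at −0.60. Without each gene's top 1% of cells, Il1a and Tnfaip3 fell under the minimum of 10 CPM, with log2 ratios of 1.45 and −0.81, and Nfkbia stood at −0.33. These cells, 12 stressed and 7 control, held 29.4% of stressed but 53.3% of control Il1a UMIs. For Nfkbia they held 18.3% and 34.15%. The step itself thus raised both ratios, and it is no check on the direction of Il1a.

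**Figure D1:**
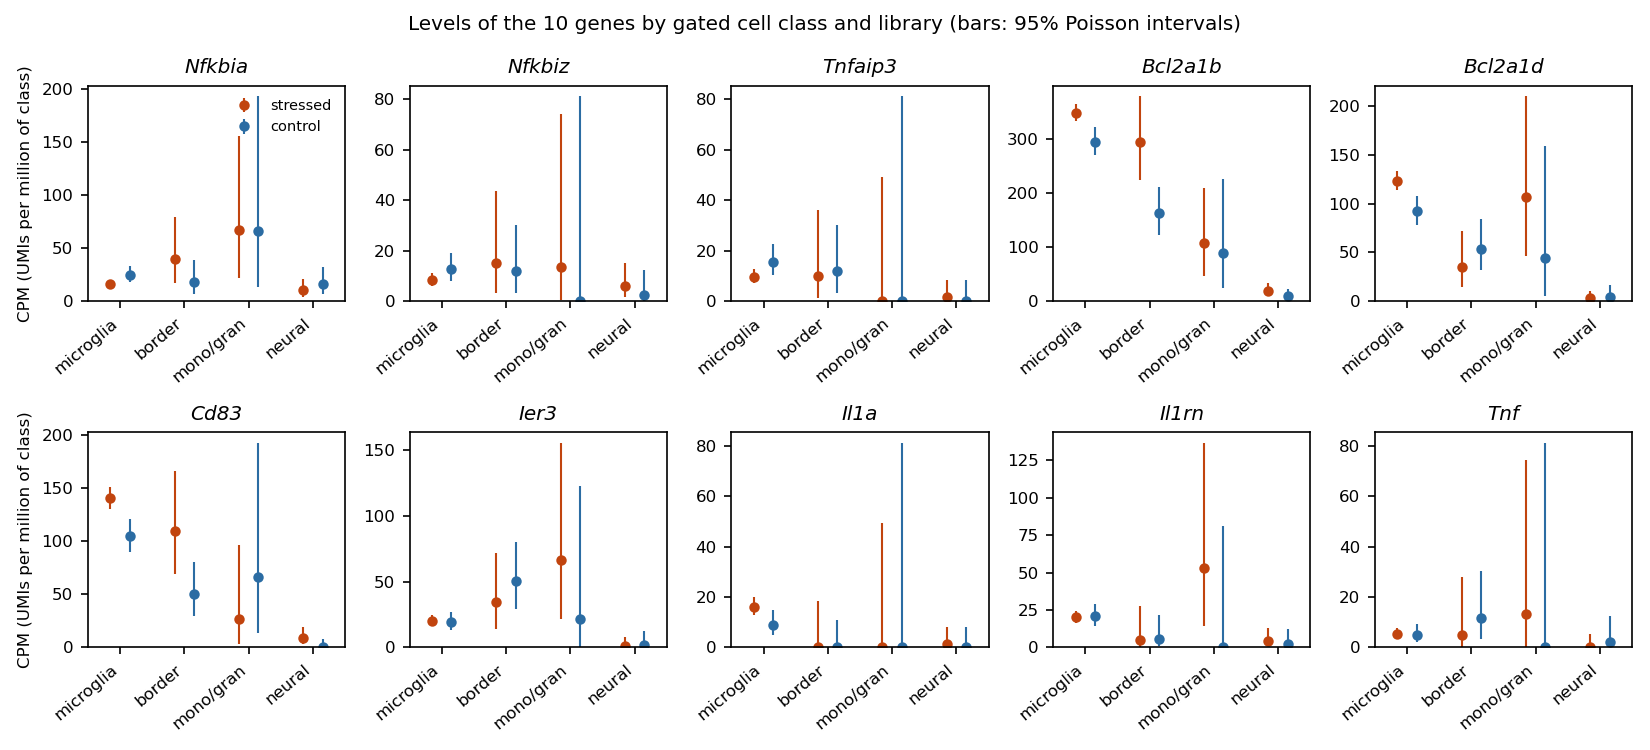
Level of each of the 10 genes (vertical axis, CPM of summed UMIs) in microglia, border-associated macrophages, monocytes or granulocytes and neural cells (horizontal axis), stressed and control library in 2 colours, with exact Poisson intervals of 95%. Bcl2a1b, Bcl2a1d and Cd83 stood far above the neural background in microglia (349.7 against 19.0 CPM for Bcl2a1b in the stressed library), while the intervals of Nfkbia in microglia and neural cells overlapped in both libraries.

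Nfkbia encodes IkBα, which holds NF-kB in the cytoplasm. It had 82 UMIs, or 15.7 CPM (12.5 to 19.5), in stressed microglia, against 41 UMIs, or 24.6 CPM (17.6 to 33.3), in control microglia. The log2 ratio was −0.65 (−1.20 to −0.07). It was also present in neural cells, at 10.2 CPM in the stressed and 15.7 CPM in the control library, and it lies on chromosome 12 (GRCm38 12:55489410-55492647, minus strand). At 1100 UMIs a Nfkbia UMI was found in 2.03% of stressed and 2.54% of control microglia, and in 0.685% of stressed and 2.44% of control neural cells, so the control share was close to that background.

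Tnfaip3 encodes A20, a ubiquitin-editing enzyme that shuts down signalling upstream of the IkB kinase. It had 50 UMIs (9.57 CPM) in stressed and 26 UMIs (15.6 CPM) in control microglia, a log2 ratio of −0.70 whose interval of −1.41 to 0.04 included 0. It lies at 10:19000910-19015657 on the minus strand. Nfkbiz encodes IkBζ, a nuclear IkB protein that works with NF-kB at part of its targets. It had 44 UMIs (8.42 CPM) in stressed and 21 UMIs (12.6 CPM) in control microglia, a log2 ratio of −0.58 (−1.36 to 0.25). It lies at 16:55811375-55838899 on the minus strand. All 3 genes had lower CPM in the stressed library, and among them the counting interval left out 0 for Nfkbia alone. With all cells thinned to 1100 UMIs the log2 ratios were −0.42 for Nfkbia, −0.49 for Tnfaip3 and 0.06 for Nfkbiz.

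Bcl2a1b and Bcl2a1d encode close copies of the anti-apoptotic protein A1, a survival target of NF-kB in blood cells. Bcl2a1b had 1828 UMIs, or 349.7 CPM (333.9 to 366.1), in stressed and 494 UMIs, or 295.8 CPM (270.3 to 323.1), in control microglia, a log2 ratio of 0.24 (0.10 to 0.39). Bcl2a1d had 645 UMIs (123.4 CPM) in stressed and 154 UMIs (92.2 CPM) in control microglia, a log2 ratio of 0.42 (0.16 to 0.68). The copies are hard to separate: their transcripts are 99.1% identical over 817 bases, and 48.6% of the 75-base windows in the last 500 bases of Bcl2a1b also occur in Bcl2a1d. The split between copies is therefore uncertain. Summed with the third copy, Bcl2a1a, they reached 484.4 CPM in stressed and 392.2 CPM in control microglia, a log2 ratio of 0.30 (0.18 to 0.43). They lie on chromosome 9 (Bcl2a1b at 9:89199209-89207827, plus strand, and Bcl2a1d at 9:88723285-88731914, minus strand), each overlapping another annotated gene, Gm29094 and Gm10634.

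Cd83 encodes a surface protein of activated antigen-presenting cells. It had 735 UMIs (140.6 CPM) in stressed and 175 UMIs (104.8 CPM) in control microglia, a log2 ratio of 0.42 (0.18 to 0.67). Ier3 encodes an early-response protein that modulates cell survival. It had 107 UMIs (20.5 CPM) in stressed and 32 UMIs (19.2 CPM) in control microglia, a log2 ratio of 0.10 (−0.49 to 0.71). The libraries could not be told apart for Ier3, and 42.1% of its stressed UMIs lay in the top 1% of cells. Without the top cells of each library its log2 ratio was −0.08. Cd83 lies on chromosome 13 (13:43784775-43803132, plus strand) and Ier3 on chromosome 17 (17:35821684-35822923, plus strand).

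Among the cytokines, Il1a, which encodes interleukin 1 alpha, had 85 UMIs (16.3 CPM) in stressed and 15 UMIs (8.98 CPM) in control microglia, a log2 ratio of 0.86 (0.05 to 1.76). Il1rn, the antagonist that blocks the interleukin 1 receptor, had 106 UMIs (20.3 CPM) in stressed and 35 UMIs (20.96 CPM) in control microglia, a log2 ratio of −0.05 (−0.61 to 0.55). Tnf, the gene of tumour necrosis factor, had 28 UMIs (5.36 CPM) in stressed and 8 UMIs (4.79 CPM) in control microglia. The libraries differed beyond the counting interval in the agonist Il1a and not in the antagonist Il1rn, and the difference between these ratios was not tested. Il1b, the other interleukin 1 cytokine, had 6 UMIs in stressed and 2 UMIs in control microglia. Il1a and Il1rn lie on chromosome 2 (2:129299610-129309972, minus strand, and 2:24336853-24351494, plus strand) and Tnf on chromosome 17 (17:35199381-35202007, minus strand). Il1a overlaps the annotated gene Gm14023, and the strand setting of the authors' counting is not given in the sources used here.

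**Figure D2:**
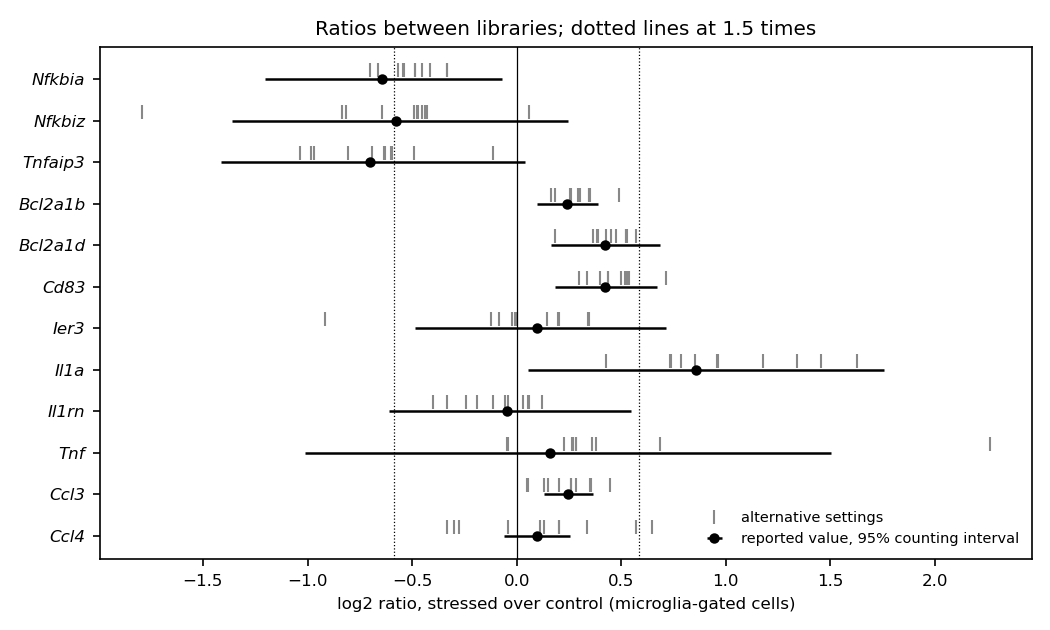
Log2 ratio of stressed over control CPM in microglia for the 10 genes and for Ccl3 and Ccl4 (dots), with the 95% counting interval (bars), the same ratio under each alternative processing (grey ticks) and dotted lines at 1.5-fold. Bcl2a1b, Bcl2a1d, Cd83 and Il1a lie above 0 and Nfkbia and Tnfaip3 below 0 at every tick.

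The share of cells with a transcript was read at 1100 UMIs per cell, leaving out 4 stressed and 46 control microglia. A Bcl2a1b UMI was found in 30.3% (27.6 to 33.0%) of stressed and 24.2% (20.8 to 27.9%) of control microglia, against 2.05% of stressed and 0.610% of control neural cells. Without thinning the microglial shares were 67.0% and 43.8%, at median depths of 4019 and 2204 UMIs. Cd83 was found in 12.97% of stressed and 9.81% of control microglia, and Bcl2a1d in 13.3% and 10.2%. Il1a was found in 2.12% (1.36 to 3.14%) of stressed and 1.02% (0.374 to 2.20%) of control microglia, and in 0 of 146 stressed and 0 of 164 control neural cells, which allows shares of cells with a UMI of up to 2.495% in stressed and 2.22% in control neural cells (exact binomial upper limits). At this depth 48.2% of stressed and 55.3% of control microglia held no UMI of the 10 genes, and 1.59% and 1.02% held 3 or more of them.

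Because the litters differed in sex, the ratios were read again among microglia with Xist and no Y-linked transcript. The log2 ratios there were 0.49 for Bcl2a1b, 0.71 for Cd83, 0.18 for Bcl2a1d, 0.43 for Il1a, −0.48 for Nfkbia and −0.97 for Tnfaip3. Each kept its direction. Bcl2a1b, Cd83 and Tnfaip3 were further from 0 than among all microglia, Bcl2a1d, Il1a and Nfkbia were closer to 0, and Il1a and Nfkbia were then under 1.5-fold. Immediate early genes, which cell isolation can switch on, were read beside them: 2 of the 7 measured were at least 1.5-fold higher in stressed microglia, Junb (37.1 against 22.2 CPM) and Jun (46.1 against 29.9 CPM). Among the cells with an immediate early share at or below their library's median, the log2 ratio of Il1a was 1.34, that of Nfkbia −0.70 and that of Ier3 −0.92.

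The rest of the pathway was sparse, and few of its genes that were measured (a mean of at least 10 CPM) passed 1.5-fold between libraries. Of the NF-kB subunits, 3 of 5 were measured and 1 was lower, Rela, the subunit best known for activating transcription (19.9 CPM in stressed and 37.1 CPM in control microglia; log2 ratio −0.90, −1.37 to −0.42). Of the IkB kinase complex and its adaptors, 11 of 15 were measured and none passed 1.5-fold in either direction, and the same held for 3 of 7 other inhibitors and deubiquitinases, 1 of 4 other IkB proteins, 3 of 8 genes of the tumour necrosis factor system and 9 of 13 pattern recognition receptors. Of the other NF-kB target genes, 9 of 27 were measured, 0 were higher and 1 was lower, the chemokine Ccl2 (18.2 CPM in stressed and 43.7 CPM in control microglia; log2 ratio −1.27, −1.72 to −0.81). A further 9 target genes, among them Il6, Ptgs2 and Cxcl10, had no UMI in microglia of either library. Of the interleukin 1 family, receptors and processing genes, 5 of 16 were measured and 1 was higher, Casp1, the protease that matures interleukin 1 beta (31.6 CPM in stressed and 20.4 CPM in control microglia; log2 ratio 0.63, 0.09 to 1.21). Their adaptor Pycard stood at 399.7 CPM in stressed and 398.8 CPM in control microglia. Measured genes under 1.5-fold differed beyond the counting interval in both directions. Csf1 (log2 ratio −0.42, −0.60 to −0.25), Ikbkb (−0.48, −0.85 to −0.10) and Marcksl1 (−0.28, −0.46 to −0.10) were lower in stressed microglia. Otulin (0.28, 0.04 to 0.53) and Ly86 (0.45, 0.37 to 0.52) were higher. Some genes under 10 CPM also differed beyond the interval, and these were higher in stressed microglia, on few control UMIs. Relb, another NF-kB subunit, had 27 UMIs in stressed and 2 UMIs in control microglia (log2 ratio 2.11, 0.12 to 5.23). Bcl2a1a had 59 and 7 UMIs (1.43, 0.30 to 2.81). The IkB gene Nfkbie had 24 and 0 UMIs, at least 2.56-fold higher against the floor of 3 UMIs.

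Cells with at least 1 UMI of both Ccl3 and Ccl4 carried more of most of these transcripts than cells with neither, in both libraries. Ier3 was about 3-fold and Il1rn more than 3-fold higher in CPM, and Cd83 about 2-fold higher or more. There were 128 such cells among stressed microglia (11.3%, 9.48 to 13.2%) and 59 among control microglia (9.26%, 7.13 to 11.8%), against 638 stressed and 395 control cells with neither. The chemokine pair is therefore a small fraction of microglia at this depth, and 326 stressed and 161 control cells carried Ccl3 alone.

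Of the 10 genes, 8 reached 10 CPM in the stressed comparison, and 2 were at least 2-fold higher in the Ccl3 and Ccl4 cells (Ier3 and Il1rn; 2.75% of 6982 genes were) while 0 were at least 2-fold lower (3.71% of genes were). Among control cells 9 were counted and 7 were at least 2-fold higher, namely Nfkbia, Nfkbiz, Tnfaip3, Bcl2a1d, Cd83, Ier3 and Il1rn (9.73% of 7142 genes were), and 0 were lower (12% of genes were). The median log2 ratio of the counted genes was 0.76 in the stressed library, where that of all genes was 0.01, and 1.41 in the control library, where that of all genes was 0.01. The control comparison rests on 187740 UMIs in the chemokine cells, and whether the libraries differ in it was not tested. Tnfaip3 (6.82 CPM) and Il1rn (5.69 CPM) were under 10 CPM in control cells with neither and were counted through the chemokine cells alone. The 10 genes were also chosen with earlier results of these data known, so these counts are a description only. The stressed count was 5 at equal depth and 1 when a UMI of either chemokine sufficed, and the control count was 7 and 3 under the same choices. Equal depth left 64 stressed and 34 control chemokine cells. The share of all genes past 2-fold was not computed under these choices, so these counts have no background to be read against.

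Il1rn stood at 39.5 CPM (31 UMIs) in stressed cells with both chemokines, against 11.8 CPM (29 UMIs) in stressed cells with neither, a log2 ratio of 1.74 (0.96 to 2.52). Control chemokine cells had 47.9 CPM (9 UMIs), against 5.69 CPM (5 UMIs) in control cells with neither, a log2 ratio of 3.08 (1.34 to 5.00). It was also higher in cells with Ccl3 alone than in cells with neither, at 23.1 against 11.8 CPM in the stressed and 38.1 against 5.69 CPM in the control library. The receptor antagonist was thus also higher where Ccl3 was found without a Ccl4 UMI. Read the other way, Ccl3 stood at 1112 CPM in stressed microglia with an Il1rn UMI, against 484.6 CPM in those without, and at 919.8 against 430.8 CPM in the control library.

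Ier3 stood at 48.4 CPM (38 UMIs) in stressed cells with both chemokines, against 15.1 CPM (37 UMIs) in stressed cells with neither, a log2 ratio of 1.68 (0.99 to 2.38). The control values were 47.9 CPM (9 UMIs) in chemokine cells and 15.9 CPM (14 UMIs) in cells with neither, a log2 ratio of 1.59 (0.20 to 2.90). In contrast to Il1rn it was not higher in cells with Ccl3 alone than in cells with neither (12.95 against 15.1 CPM in the stressed and 14.5 against 15.9 CPM in the control library). Ccl4 stood at 1114.5 CPM in stressed microglia with an Ier3 UMI, against 217.9 CPM in those without, and at 432.1 against 250.2 CPM in the control library. In stressed microglia thinned to 1100 UMIs, Ier3 stood at 17.2 CPM in cells with 0 UMIs of Ccl3 and Ccl4 together, 6.14 CPM with 1, 69.9 CPM with 2 to 4 and 232.1 CPM (119.9 to 405.4) with 5 or more. In control microglia the same steps gave 18.9, 34.5, 32.5 and 118.6 CPM (24.5 to 346.5).

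**Figure D3:**
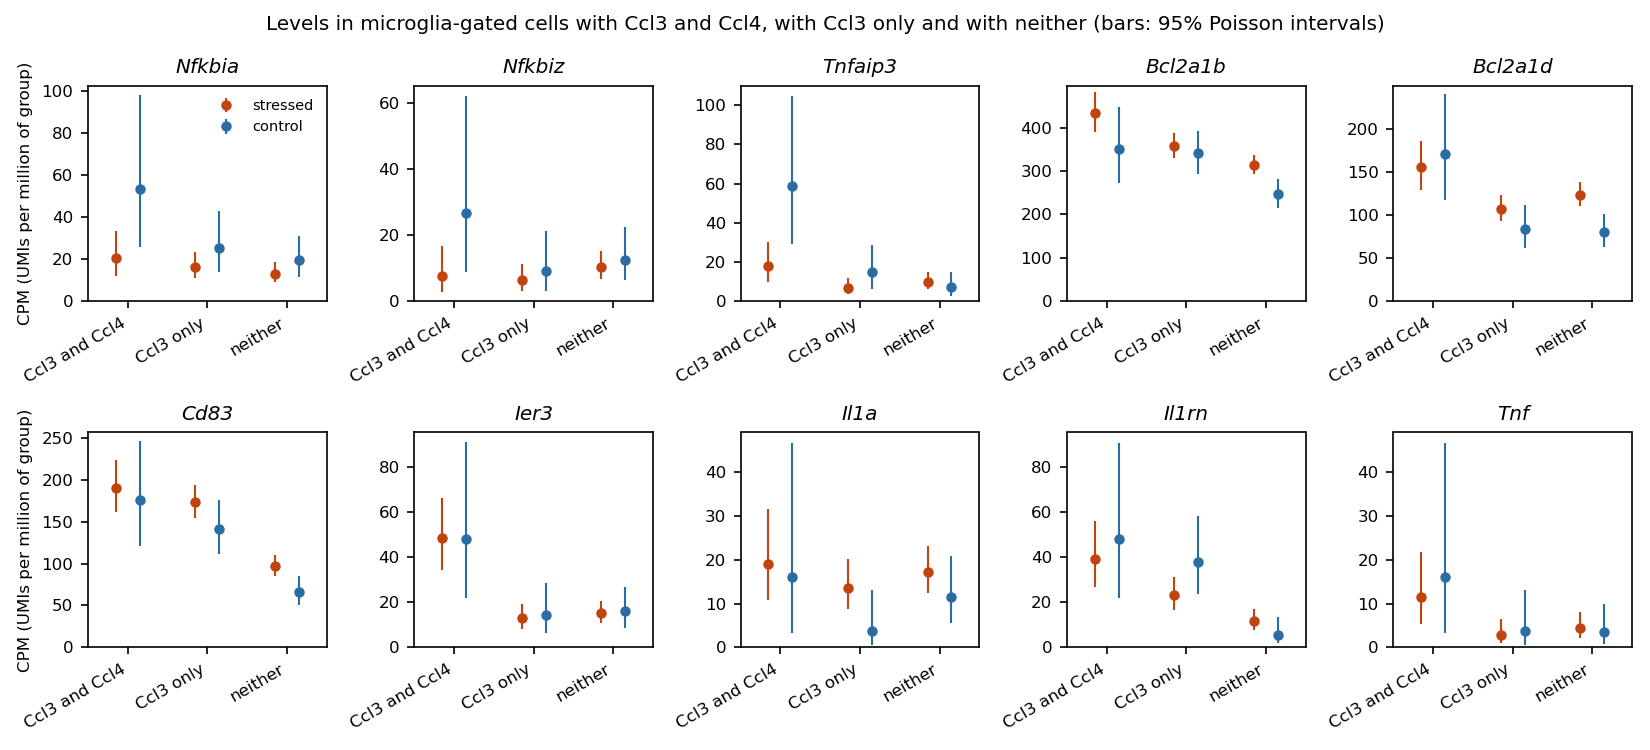
Level of each of the 10 genes (CPM, with exact Poisson intervals of 95%) in microglia with both Ccl3 and Ccl4, with Ccl3 only and with neither, stressed and control library side by side. Ier3 stood higher in the chemokine cells of both libraries (48.4 and 47.9 CPM) and lower in the cells with neither (15.1 and 15.9 CPM), while the stressed intervals of Il1a overlapped between the 3 kinds of cell.

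Cd83 stood at 191 CPM (150 UMIs) in stressed cells with both chemokines, against 96.9 CPM (238 UMIs) in stressed cells with neither, a log2 ratio of 0.98 (0.67 to 1.28). The control library gave 175.8 CPM (33 UMIs) in the chemokine cells, against 66.0 CPM (58 UMIs) in cells with neither, a log2 ratio of 1.41 (0.75 to 2.06). With Ccl3 alone it stood at 173.9 CPM in the stressed and 141.4 CPM in the control library. The control value depends on the way cells are chosen: after thinning, 1 of 34 control chemokine cells (2.94%) held a Cd83 UMI, against 7.62% of control cells with neither, while in cells with a UMI of only one of the chemokines the share was 19.4%. In the stressed library the thinned shares were 25.0% in chemokine cells, 19.8% with one chemokine and 10.3% with neither.

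The feedback inhibitors were higher in the chemokine cells of the control library. Tnfaip3 stood at 58.6 CPM (11 UMIs) in control cells with both chemokines, against 6.82 CPM (6 UMIs) in control cells with neither, a log2 ratio of 3.10 (1.54 to 4.82). Nfkbia stood at 53.3 CPM (10 UMIs) against 19.3 CPM (17 UMIs) there, a log2 ratio of 1.46 (0.17 to 2.67). In the stressed library the same comparison gave 17.8 against 9.77 CPM for Tnfaip3 (0.87, −0.20 to 1.88) and 20.4 against 13.02 CPM for Nfkbia (0.65, −0.32 to 1.55). At equal depth a Tnfaip3 UMI was found in 0 of 64 stressed chemokine cells (0 to 5.60%), against 13 of 847 with neither (1.54%). The control cells held it in 2 of 34, against 7 of 433. No lean of stressed Tnfaip3 toward the chemokine cells was thus seen at equal depth. Set directly against each other, stressed chemokine cells were below control chemokine cells in Nfkbia (20.4 and 53.3 CPM, log2 ratio −1.39, −2.62 to −0.09) and in Tnfaip3 (17.8 and 58.6 CPM, −1.72, −2.96 to −0.43). These groups were picked at unlike depth, with medians of 5672 stressed and 3036 control UMIs. At equal depth Nfkbia was found in 2 of 64 stressed and 2 of 34 control chemokine cells. Tnfaip3 was found in 0 of 64 and 2 of 34, and these cells are too few to compare the libraries. Nfkbiz stood at 7.64 CPM (6 UMIs) in stressed chemokine cells, against 10.2 CPM (25 UMIs) in stressed cells with neither, and at 26.6 CPM (5 UMIs) against 12.5 CPM (11 UMIs) in the control library.

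Bcl2a1b differed less. It stood at 434.2 CPM in stressed chemokine cells, against 313.8 CPM in stressed cells with neither (log2 ratio 0.47, 0.28 to 0.65), and at 351.6 against 246.7 CPM in the control library (0.51, 0.09 to 0.91). At equal depth the control ratio of Bcl2a1b was −0.21. Bcl2a1d stood at 155.3 against 123.3 CPM in the stressed library (0.33, 0.02 to 0.64) and at 170.4 against 79.6 CPM in the control library (1.10, 0.45 to 1.72). Tnf rested on 9 UMIs in stressed chemokine cells, against 11 in cells with neither, and on 3 against 3 in the control library. Its CPM was 11.46 against 4.48 in the stressed and 16.0 against 3.41 in the control library, with intervals that included no difference.

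The level of Il1a in chemokine cells depended on depth, and its counts were few. It stood at 19.1 CPM (15 UMIs) in stressed chemokine cells, against 17.1 CPM (42 UMIs) in stressed cells with neither, a log2 ratio of 0.16 (−0.80 to 1.04). At equal depth that ratio was 1.14, with an Il1a UMI in 3 of 64 chemokine cells (4.69%, 0.977 to 13.1%), against 17 of 847 cells with neither (2.01%, 1.17 to 3.19%). In the control library it stood at 16.0 CPM (3 UMIs) against 11.4 CPM (10 UMIs). Of the Il1a UMIs of stressed microglia 17.7% lay in chemokine cells, against 29.3% of those of Il1rn, where these cells held 15.03% of all UMIs. No stressed microglial cell held both Il1a and Tnf, where the product of their shares gave 1.66 cells, and 23 held Il1a and Cd83, where it gave 26.8. In contrast 53 held Il1rn and Cd83, where it gave 29.1, and 258 held Cd83 and Ccl3, where it gave 174. Deep cells hold more of every gene, so such counts are a description only.

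**Figure D4:**
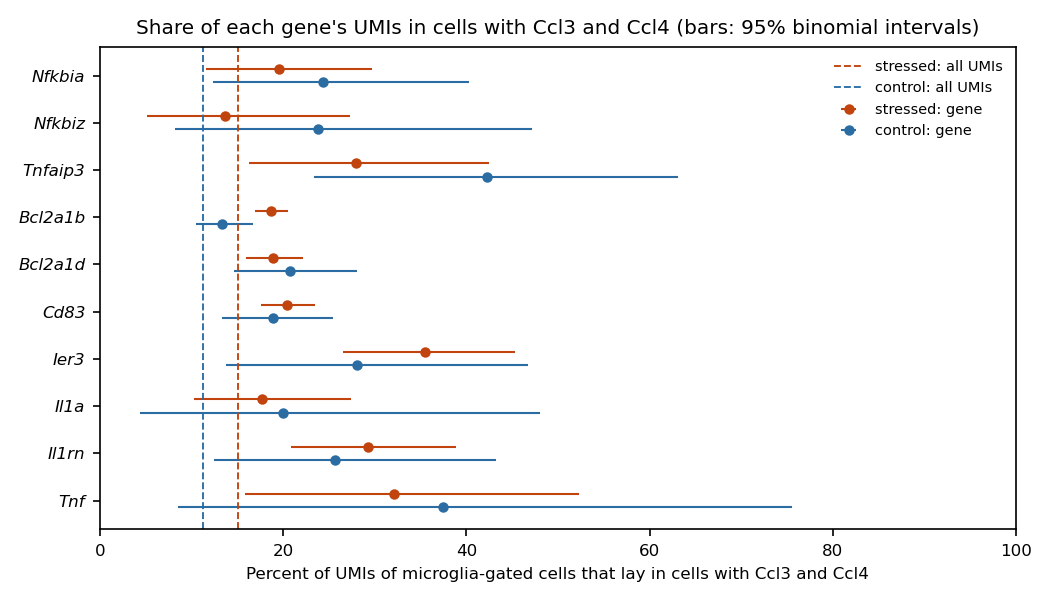
Share of each gene's microglial UMIs that lay in cells with both Ccl3 and Ccl4 (percent, exact binomial intervals of 95%), stressed and control library, with dashed lines at the share of all UMIs in those cells (15.03% stressed, 11.2% control). Ier3 (35.5%, 26.5 to 45.4%) in the stressed library and Tnfaip3 (42.3%, 23.4 to 63.1%) in the control library had the highest shares, and Nfkbiz in the stressed library (13.6%) lay below its line.

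The chemokine cells also differed in depth and in part of the immediate early genes. Their median depth was 5672 UMIs, against 3420 in cells with neither, in the stressed library, and 3036 against 1938 in the control library. The 14 immediate early genes summed to 618.8 CPM in chemokine cells, against 368.3 CPM in cells with neither, in the stressed library, and to 660.5 against 314.9 CPM in the control library. Atf3 had the largest difference in CPM, at 212.6 against 17.1 in the stressed and 266.3 against 20.5 in the control library. Among the measured genes Egr2 had the largest ratio, at 31.8 CPM (25 UMIs) against 0.407 CPM (1 UMI) in the stressed library. Its control values were 32.0 CPM (6 UMIs) against 1.14 CPM (1 UMI). Of the 9 measured genes, 3 were at least 2-fold higher in the stressed library (Egr1, Egr2 and Atf3). The control library had 4 higher (the same 3 and Ier2) and 1 lower (Btg2). Jun, Junb and Jund differed less, at 56.0 against 47.2, 40.7 against 37.85 and 155.3 against 186.8 CPM in the stressed library. At equal depth, 40.6% (28.5 to 53.6%) of 64 stressed chemokine cells held a UMI of the 8 genes other than the Bcl2a1 copies, against 18.3% of 847 cells with neither. The control shares were 35.3% (19.8 to 53.5%) of 34 cells, against 15.2% of 433 cells. Among stressed cells with a lower immediate early share, 39 chemokine cells against 328 with neither, the log2 ratio of Il1rn was 1.89, that of Cd83 0.65 and that of Ier3 0.21. The part that isolation has in the chemokine cells was not tested beyond these values.

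Part of the other NF-kB target genes was also higher in the chemokine cells. The gene lists were drawn up with earlier results of these data known, so their counts are a description. Over all genes, 2.75% were at least 2-fold higher in the stressed and 9.73% in the control library. At least 2-fold lower were 3.71% and 12%. Several of the genes named here reached 10 CPM only through the chemokine cells. Of the other target genes, 11 of 27 were measured in the stressed library, where 5 were at least 2-fold higher in chemokine cells (Ccl2, Gadd45b, Plaur, Plau and Csf1) and 1 was lower (Bcl2a1a). In the control library 10 were measured, 6 were higher (the same 5 and Sod2) and 0 were lower. Csf1, a growth factor for microglia and macrophages, stood at 458.4 against 52.5 CPM in the stressed and 745.7 against 83 CPM in the control library. Ccl2, a chemokine that draws monocytes, stood at 81.5 against 4.48 CPM in the stressed and 202.4 against 13.6 CPM in the control library. Of the 3 NF-kB subunits measured, 0 passed 2-fold in either library. Of the IkB kinase complex and adaptors, 0 of 12 in the stressed and 0 of 10 in the control library were higher. In the control library 2 were lower, Chuk and Myd88, each on 1 UMI in chemokine cells. Their intervals included no difference (log2 ratio −2.47, −7.83 to 0.13, for Chuk and −1.86, −7.245 to 0.81, for Myd88), and neither passed 2-fold in the stressed library. Of the other inhibitors and deubiquitinases, Cyld was lower in stressed chemokine cells (15.3 against 34.6 CPM), and Tnip2 was higher in control chemokine cells (21.3 CPM on 4 UMIs against 9.10 CPM). Nfkbid, another nuclear IkB protein and 1 of 2 such genes measured in each library, was higher, at 21.6 against 4.07 CPM in the stressed and 21.3 against 6.82 CPM in the control library. Of the other interleukin 1 family and processing genes, 0 of 5 were higher in either library. Nlrp3 was lower in both, with intervals that included no difference. Of the tumour necrosis factor system, 0 of 3 were higher. Its Tnfrsf1b (log2 ratio −3.36, −8.69 to −0.81, on 1 UMI) and Adam17 (−1.20, −2.455 to −0.16) were lower in the control library. Of the pattern recognition receptors, 0 of 9 were higher, and Tlr3 in the stressed and Tlr6 in the control library were lower.

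Across microglia, the genes whose level went most closely with the mean level of the 10 genes were Fabp5, Ccl3, Spp1, Csf1, Ccl4, Cstb, Ftl1, Fam20c, Atf3 and Rap2b. Their Pearson correlations, averaged over 1137 stressed and 637 control cells, ran from 0.279 for Fabp5 through 0.256 for Ccl3 and 0.238 for Ccl4 to 0.202 for Rap2b, while the median over all 5100 candidate genes was 0.019 in the stressed and 0.023 in the control library. The cells share library and depth, and values of this size are weak. Cells were also clustered on the 2000 most variable genes, from which none of these genes was held out on purpose. The cluster led by Gpnmb, Spp1, Fabp5 and Csf1 had 41.1 CPM of Il1rn in the stressed and 40.9 CPM in the control library. The cluster led by Slc2a5, Tmem119 and P2ry12 had 3.19 and 7.27 CPM. For Il1a the order was the other way round, 9.71 and 5.33 CPM in the Gpnmb cluster and 21.1 and 16.4 CPM in the Tmem119 cluster. Ier3 was level between them, at 19.4 and 23.1 CPM in the Gpnmb cluster and 19.8 and 18.2 CPM in the Tmem119 cluster. As a product of the clustering these values carry no test.

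Dividing microglia, taken as cells with a UMI of Mki67 or Top2a, had less Ccl3 and about the same Bcl2a1b. There were 245 such cells against 892 others in the stressed library and 111 against 526 in the control library. Ccl3 stood at 391 CPM in dividing cells, against 613.1 CPM in the others, in the stressed library (log2 ratio −0.65, −0.78 to −0.52), and at 273.8 against 523.3 CPM in the control library (−0.93, −1.24 to −0.64). Bcl2a1b stood at 356.3 against 347 CPM in the stressed and 300.5 against 294.3 CPM in the control library, with log2 ratios of 0.04 (−0.11 to 0.18) and 0.03 (−0.28 to 0.33). Bcl2a1b and Ccl3 were each read against the same other cells, and the difference between them was not tested. The close copy Bcl2a1d was lower in dividing cells, with log2 ratios of −0.33 (−0.59 to −0.07) in the stressed and −0.32 (−0.93 to 0.25) in the control library. The split between copies is uncertain here too. Tnfaip3 was also lower, on 8 UMIs in stressed (−1.12, −2.42 to −0.01) and 3 UMIs in control dividing cells (−1.33, −3.71 to 0.40). For Il1rn the libraries went apart, with 23.5 against 18.9 CPM in the stressed and 4.85 against 26.3 CPM in the control library, the control value in dividing cells resting on 2 UMIs.

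Border-associated macrophages, the macrophages of the meninges and perivascular spaces, had less Bcl2a1d than microglia in both libraries. Bcl2a1d stood at 35.0 CPM (7 UMIs) in stressed border macrophages, against 123.4 CPM in stressed microglia (log2 ratio −1.82, −3.14 to −0.77), and at 53.3 CPM (18 UMIs) against 92.2 CPM in the control library (−0.79, −1.58 to −0.08). The 3 copies summed to 339.7 CPM against 484.4 CPM in stressed microglia (−0.51, −0.88 to −0.16) and to 216.3 CPM against 392.2 CPM in the control library (−0.86, −1.23 to −0.51). In the stressed library 7 of the 10 genes were counted, 1 was at least 2-fold higher in border macrophages (Nfkbia; 9.75% of 6859 genes were) and 2 were lower (Bcl2a1d and Il1rn; 13.3% of genes were). Among control cells 8 were counted, 1 was higher (Ier3; 7.52% of 7125 genes were) and 2 were lower (Cd83 and Il1rn; 14.3% of genes were). The value of Il1rn rested on 1 stressed and 2 control UMIs in border macrophages, and it reached 10 CPM through microglia alone.

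Ier3 stood at 35.0 CPM (7 UMIs) in stressed border macrophages, against 20.5 CPM in stressed microglia (0.77, −0.58 to 1.87), and at 50.4 CPM (17 UMIs) against 19.2 CPM in the control library (1.39, 0.45 to 2.29). Bcl2a1b stood at 294.7 CPM (59 UMIs) against 349.7 CPM in the stressed and 162.9 CPM (55 UMIs) against 295.8 CPM in the control library. Cd83 stood at 109.9 CPM against 140.6 CPM in the stressed and 50.4 CPM against 104.8 CPM in the control library. Between the libraries, stressed border macrophages were above control border macrophages in Bcl2a1b (log2 ratio 0.85, 0.30 to 1.41) and Cd83 (1.13, 0.15 to 2.13). Under a stricter gate, which left 17 stressed and 66 control border macrophages, Bcl2a1b stood at 98.5 and 127.1 CPM and Cd83 at 29.5 and 39.7 CPM, so these 2 differences turned round with the gate. Nfkbia stood at 40.0 CPM (8 UMIs) against 15.7 CPM in stressed microglia (1.35, 0.09 to 2.395), and at 17.8 CPM (6 UMIs) against 24.6 CPM in the control library. With classes taken from clusters the stressed ratio of Nfkbia was −0.35.

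In monocytes and granulocytes the 3 Bcl2a1 copies summed to 360.5 CPM (27 UMIs), against 484.4 CPM in stressed microglia (log2 ratio −0.43, −1.03 to 0.12), and to 132.2 CPM (6 UMIs) against 392.2 CPM in the control library (−1.57, −3.02 to −0.44). Read alone, Bcl2a1b stood at 106.8 CPM (8 UMIs) against 349.7 CPM in stressed microglia (−1.71, −2.93 to −0.73) and at 88.1 CPM (4 UMIs) against 295.8 CPM in the control library (−1.75, −3.63 to −0.38). Bcl2a1a stood at 146.9 CPM in the stressed monocytes and granulocytes, and the split between copies is uncertain there too. Nfkbia stood at 66.8 CPM (5 UMIs) against 15.7 CPM in stressed microglia (2.09, 0.43 to 3.37) and at 66.1 CPM (3 UMIs) against 24.6 CPM in the control library, where the interval was wide. In the stressed library 7 genes were counted, of which 3 were at least 2-fold higher than in microglia (Nfkbia, Ier3 and Il1rn; 17.4% of 6327 genes were) and 2 were lower (Bcl2a1b and Cd83; 15.1% of genes were). Of the 5 Ier3 UMIs there, 4 lay in 1 cell. In the control library 5 were counted, 1 was higher (Nfkbia; 27.9% of 5639 genes were) and 2 were lower (Bcl2a1b and Bcl2a1d; 14.3% of genes were). With 16 and 23 cells, neither library gives more than a few UMIs per gene.

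Il1a was not detected outside microglia among the myeloid cells: 0 of 48 stressed and 0 of 108 control border macrophages, monocytes and granulocytes held a UMI. Against the floor of 3 UMIs over those cells, its level was at least 1.49-fold lower than in microglia in the stressed library and at least 1.15-fold lower in the control library. Cells with no marker class held 2 stressed UMIs and 1 control UMI. At this depth these limits do not set the other myeloid cells far below microglia.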

How the data were processed

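The authors deposited raw UMI counts per gene and cell barcode, made with Cell Ranger 3.0.0 and STAR on GRCm38.p5 (mm10), per the submitters' processing notes. The strand setting is not given in the sources used here. The 10 genes and all gene lists were chosen with earlier results of these data known.

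A barcode needed 500 detected genes to be kept and was dropped if over 10% of its UMIs were mitochondrial. A cell was assigned to the class with most detected markers (8 per class, at least 2 detected). Doublets were gated out by scatter at the sort, per the labels' protocols. Scrublet's own threshold marked too few cells to have worked, so doublets stayed in, and the highest 3.5% of scores were left out as an alternative. Counts were summed per class and library into CPM. Ratios carry exact conditional intervals, levels exact Poisson intervals and shares Clopper-Pearson intervals, all at 95% and for counting error only. Members were counted past 1.5-fold between libraries and 2-fold otherwise, at a mean of at least 10 CPM. A gene could thus be counted through its higher group alone. A level of 0 was set to a floor of 3 UMIs. Thinning drew 1100 UMIs per cell.

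From each list, up to 4 genes of at least 20 CPM with the largest library ratio could be named, with the 10 genes most correlated with the 10 members' mean log level. Genes past the fold in the chemokine comparison, Il1b, Bcl2a1a, Pycard, Relb, Nfkbie, Marcksl1 and genes without UMIs were named after their values were seen. Tools were Python 3.11.15, scipy 1.17.1, scanpy 1.11.5, edgeR 4.0.16 and DESeq2 1.42.0 (the last 2 for scaling factors only). Positions are from GENCODE M21 (GRCm38), which matched 30934 of 31053 feature IDs. Promoters are from RefSeq (GRCm38.p6). The ratio step was tested on simulated data.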

Additional observations from a re-analysis of the deposited data

How the results depend on the processing

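No paired analysis was possible because each condition had 1 library, and for the same reason no replicate could be left out. Between the libraries, the directions of Bcl2a1b, Bcl2a1d, Cd83, Il1a, Nfkbia and Tnfaip3 in microglia held in all 11 alternatives of cell choice and scaling, with log2 ratios from 0.17 to 0.49, 0.18 to 0.57, 0.30 to 0.71, 0.43 to 1.62, −0.70 to −0.33 and −1.04 to −0.11. For Il1a the alternative without top cells is no check on direction, since it took out a larger share of control than of stressed UMIs. Ier3 ranged from −0.92 to 0.35 and Il1rn from −0.40 to 0.12. The counts past 1.5-fold are fragile, and under the alternatives here and below the share of all genes was not computed beside the counts. The 1 higher gene became 0 among cells with a low immediate early share and without each gene's top 1% of cells, where Il1a had ratios of 1.34 and 1.45 but fell under 10 CPM, and also at 20 or 50 CPM and at 2-fold. Among Xist cells Il1a was at 0.43, and the count stayed at 1 through Cd83 (0.71). The 2 lower genes became 1 with DESeq2 factors, TMM, a filter of 1000 genes and 5% mitochondrial UMIs, or 20 CPM, and 0 with thinning, a mean of per-cell CPM, no top cells (Tnfaip3, at −0.81, fell under 10 CPM), 50 CPM or 2-fold. It stayed at 2 in Xist cells, with classes from clusters and with a strict gate, where Nfkbia was under 1.5-fold (−0.48, −0.49 and −0.33) and Nfkbiz past it (−0.83, −0.64 and −0.81), and was 3 among cells with a low immediate early share.

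In the chemokine comparison the stressed count of 2 became 5 with thinning, 4 with the stricter filter, 4 with at least 2 UMIs of both chemokines, 1 with a UMI of either and 5 at 1.5-fold. The control count of 7 became 3 (of 5 counted) among cells with a low immediate early share and 3 with a UMI of either. In the control library Cd83 turned to −1.46 with thinning and −1.58 in cells with a low immediate early share, and Nfkbiz to −0.49 with at least 2 UMIs of both.

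Against microglia, the stressed border macrophage count of 1 higher became 2 with a strict gate (4 markers, lead of 2), 0 with classes from clusters and 3 at 1.5-fold, and 2 lower became 1 with clusters, where Nfkbia turned to −0.35 and Il1rn to 0.58. In the control library 1 higher became 2 and 2 lower became 4 with the strict gate, and 4 at 1.5-fold. For stressed monocytes and granulocytes 2 lower became 1 with the strict gate. In the control library 2 lower became 0 with the strict gate, 0 with clusters (as did the 1 higher) and 1 with the stricter filter (higher, 0). Summing the Bcl2a1 copies between classes was chosen after seeing the data. The cause of the other moves was not tested. Depth limits all genes other than Bcl2a1b, Bcl2a1d and Cd83, and the other myeloid classes throughout.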
